A study of Mus musculus with 16 samples.

Results

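The genes described here are those reported as transcriptional targets of the APP intracellular domain (AICD), measured in mouse hippocampus. The set had 8 symbols, Cd82, Gsk3b, Mme, Lrp1, Trp53, Tagln, Egfr and Slc17a6, and its members were all probe sets that the platform annotation pairs with one of these symbols alone. That rule found 22 of 45037 probe sets for 7 of the 8 genes: 7 for Egfr, 6 for Gsk3b, 2 each for Cd82, Lrp1, Mme and Slc17a6, and 1 for Tagln. Trp53 was not analysed here, because no probe set in the annotation table carried its symbol alone. Of the 22 probe sets, 15 passed a filter on low signal, a mean log2(signal + 9) of 6.60 over the 16 arrays. The remaining 7 had a lower mean log2 signal, and 4 of them belonged to Egfr. Every one of the 7 genes had a probe set past the filter, so all 7 were among the 11664 genes tested. The brightest probe set of a gene, by its mean over the 16 arrays, is called leading.

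AICD is the short cytoplasmic tail that gamma-secretase releases when it cuts the amyloid precursor protein (APP). It forms a complex with the adaptor Fe65 (Apbb1) and the acetyltransferase Tip60 (Kat5). This complex has been described in the nucleus and at the promoters of candidate target genes. Cd82, Gsk3b, Mme, Tagln and Trp53 have been reported as raised by AICD, and Lrp1 and Egfr as repressed by it. Which genes it regulates in brain has been disputed. The relative APLP2 is cut in the same way and also releases an intracellular domain.

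The RNA came from 16 arrays, with 4 in each of 4 genotype groups, all labelled male, 2 months old and of strain C56/BL6. WT is the wild type. APP_KO carries the genotype label APP-/-, APLP2_KO the label APLP2-/-, and N_dCKO the label APP-/-; APLP2-/-. The series title calls the last group a neuronal double-conditional knockout. The Cre driver, the cells that carried the deletion and whether any cells kept APP in N_dCKO are not given in the sources used here. Whether the 4 arrays of a group come from different animals is not labelled, and the p-values therefore reflect array-to-array spread that could be technical. The leading App probe set read 13.6% of its WT level in APP_KO and 11.8% in N_dCKO. On that of Aplp2, APLP2_KO kept 19.4% and N_dCKO 16.7%. Aplp1, the remaining family member, was at 97.4% to 103% of WT in the knockout groups on its brighter probe set and at 93.7% to 95.7% on the other. Markers of hippocampal neurons, such as Prox1 and Neurod6, had nearly equal mean levels in the 4 groups, from 10.19 to 10.21 on the log2 scale for 12 genes. Within N_dCKO, arrays 1, 2 and 4 stood apart from array 3 in genes of choroid plexus, whose summed signal over 9 genes was 676, 941 and 1398 on those 3 arrays and 36767 on array 3. The 12 arrays of the other groups lay from 30391 to 41466. A bulk sample cannot tell fewer cells of a type apart from less RNA per cell.

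The promoters of 4 members are shown because AICD or its complexes have been described as acting there, and because 1 of the 4, Cd82, changed in these data. Each is the 250 bases before the farthest upstream annotated start, from RefSeq on GRCm38.p6, printed 5′ to 3′ on the gene's strand. Cd82 has 4 annotated starts, Mme 3, and Lrp1 and Egfr 1 each. Whether these windows hold the sites described for AICD was not tested. The regions are chr2:93462951-93463200 on the minus strand for Cd82, chr3:63294961-63295210 on the plus strand for Mme, chr10:127621149-127621398 on the minus strand for Lrp1 and chr11:16751953-16752202 on the plus strand for Egfr. Capitals mark the GC box GGGCGG, searched on both strands (CCGCCC on the strand shown), a motif bound by Sp1 and related factors.
Cd82: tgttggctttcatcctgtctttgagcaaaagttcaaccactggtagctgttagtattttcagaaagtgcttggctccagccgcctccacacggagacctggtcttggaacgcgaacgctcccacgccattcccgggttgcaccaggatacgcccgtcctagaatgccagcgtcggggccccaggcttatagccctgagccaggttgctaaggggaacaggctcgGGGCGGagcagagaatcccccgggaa
Mme: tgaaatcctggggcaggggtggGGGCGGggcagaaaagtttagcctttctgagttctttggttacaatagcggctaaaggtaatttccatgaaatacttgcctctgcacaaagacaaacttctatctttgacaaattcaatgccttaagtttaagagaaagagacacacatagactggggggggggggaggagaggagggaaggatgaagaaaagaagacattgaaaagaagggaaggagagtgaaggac
Lrp1: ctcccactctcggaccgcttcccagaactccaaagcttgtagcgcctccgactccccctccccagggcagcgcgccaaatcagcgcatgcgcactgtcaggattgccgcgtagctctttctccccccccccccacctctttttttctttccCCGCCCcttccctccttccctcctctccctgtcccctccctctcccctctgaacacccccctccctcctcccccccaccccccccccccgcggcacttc
Egfr: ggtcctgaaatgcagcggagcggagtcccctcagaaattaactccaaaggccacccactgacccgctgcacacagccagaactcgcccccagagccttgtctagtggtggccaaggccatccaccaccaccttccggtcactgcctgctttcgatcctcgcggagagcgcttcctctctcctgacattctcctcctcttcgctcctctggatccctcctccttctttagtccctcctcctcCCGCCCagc
Each of these 4 windows held 1 GC box and no match to the NF-kappaB consensus, CCAAT or TATAAA. Of all 7 members with a promoter entry, 5 held a GC box (Slc17a6 was the fifth), and Gsk3b and Trp53 held none. CCAAT and TATAAA matched in Gsk3b and Trp53, and the NF-kappaB consensus matched in Gsk3b alone of the 7. Over 32851 promoter windows of the same length, 32.7% held a GC box, 33.8% CCAAT, 12.4% TATAAA and 7.25% the NF-kappaB consensus. GC content was 58.4% at Cd82, 45.6% at Mme, 67.2% at Lrp1 and 60.8% at Egfr. A match describes letters in the window and is not a measured site.

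Cd82, a tetraspanin of the plasma membrane known as a suppressor of metastasis, was lower in N_dCKO than in WT, with a fold of 0.575. It was the 1 member of the 7 tested that passed the test in any of the 9 comparisons made. In the comparison of all 8 arrays without APP with the 8 arrays that have it, Cd82 had a fold of 0.716, and the difference missed the threshold. The other 6 members passed the test in none of the 9 comparisons.

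The Cd82 signal on the leading probe set was 603, 713, 524 and 482 on the 4 WT arrays and 326, 395, 270 and 325 on the 4 N_dCKO arrays. The single knockouts had means between those of WT and N_dCKO, with signals of 318, 547, 344 and 406 in APP_KO and 366, 529, 466 and 430 in APLP2_KO. All N_dCKO arrays were thus below all WT arrays, while both single knockouts overlapped WT and N_dCKO. The group means were 581 ± 101 in WT (SD, n = 4), 448 ± 68.1 in APLP2_KO, 404 ± 102 in APP_KO and 329 ± 51.2 in N_dCKO. In that order, neighbours did not pass the permutation test. The exact two-sided permutation p was 0.0857 for APLP2_KO against WT, 0.429 for APLP2_KO against APP_KO and 0.2 for N_dCKO against APP_KO, with 4 arrays on each side and a smallest possible p of 0.0286. The limma interval for APLP2_KO against WT, from -0.70 to -0.03 (unadjusted p = 0.0332), excluded 0.

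N_dCKO differed from WT by -0.80 ± 0.16 (SE) in Cd82 on the log2(signal + 9) scale, with an adjusted p of 0.0169 by limma with Benjamini-Hochberg adjustment over 11664 genes. The fold of 0.575 had a 95% interval from 0.456 to 0.724. Of all genes tested, 0.943% passed in that comparison, against 1 of the 7 members. The exact permutation p was 0.0286, the smallest that 4 against 4 arrays can give. The Cd82 call was lost when any of 4 arrays was left out. The adjusted p from limma was then 0.0565 with WT array 1 left out and 0.0888 with WT array 2 left out. It was 0.0576 when N_dCKO array 1 and 0.0502 when N_dCKO array 3 was dropped. In these 4 fits, in the same order, 0.549%, 0.386%, 0.394% and 0.883% of all genes passed.

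**Figure D1:**
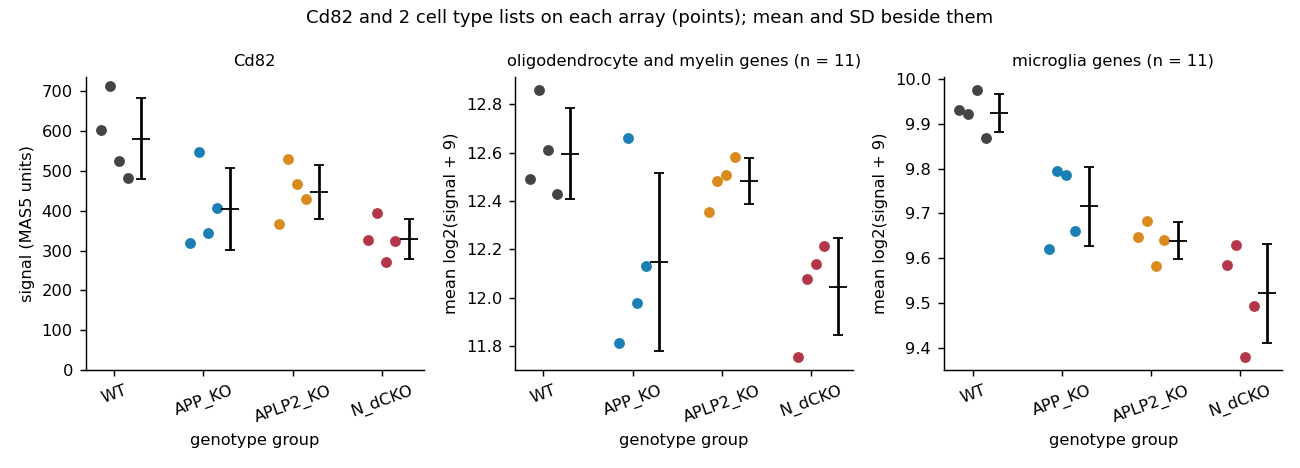
Signal of the leading Cd82 probe set (left, MAS5 units) and mean log2(signal + 9) of 11 oligodendrocyte and myelin genes (middle) and 11 microglia genes (right), by genotype group. Points are arrays, and the bars beside them are the mean and SD of 4 arrays. Cd82 was at 482 or above on every WT array and at 395 or below on every N_dCKO array, and both lists had their lowest group mean in N_dCKO.

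The question a list of AICD targets puts to this design is whether the gene differs where APP is lost, with and without APLP2. In Cd82, APP_KO against WT gave -0.53 ± 0.16 (SE, limma adjusted p = 0.826) and N_dCKO against APLP2_KO gave -0.43 ± 0.16 (adjusted p = 0.458). Both differences had the same sign but neither passed the test. Cd82 was lower without APP in all 8 same-numbered pairs of arrays, 4 of APP_KO with WT and 4 of N_dCKO with APLP2_KO. In the check for pairing by number, N_dCKO with APLP2_KO had r over 0.1 in 2 of its 4 pairs. The share of all genes lower in all 8 pairs is not given here. The replicate numbers paired WT with APP_KO arrays, and in the fit of these 2 groups with the number as a block, added after seeing the data, Cd82 gave -0.53 ± 0.11 (limma adjusted p = 0.153), where 0.0514% of all genes passed. The mean of APP_KO against WT and N_dCKO against APLP2_KO is APP loss over 8 against 8 arrays. It was -0.48 ± 0.11 with a limma adjusted p of 0.0910 and an exact permutation p within strata of 0.00367. Leaving out APP_KO array 2, the APP_KO array with the highest Cd82 signal, gave -0.56 with a limma adjusted p of 0.0127, where 0.806% of all genes passed against 0.0171% with all arrays. With the replicate number as a block over all 16 arrays the adjusted p for APP loss was 0.0108, where 0.566% of all genes passed. Loss of APLP2 over 8 against 8 arrays gave -0.32 ± 0.11 in Cd82 (limma adjusted p = 0.270, with an exact permutation p of 0.0241), and APLP2_KO against WT gave -0.37 ± 0.16 (adjusted p = 0.625). The interaction of both losses was 0.10 ± 0.23 in Cd82, with a 95% interval from -0.37 to 0.57.

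The other Cd82 probe set lay below the filter, with a mean signal of 67.5 over 16 arrays and a range from 7.25 to 173. It gave 0.54 ± 0.64 (SE) for N_dCKO against WT, with a 95% interval from -0.80 to 1.88. The pair therefore did not have the same sign. The leading estimate of -0.80 lay at the lower edge of the interval of the dim probe set. The Cd82 result rests on 1 probe set.

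Markers of other cell types moved with Cd82. Of 11 tested oligodendrocyte and myelin genes, all 11 had lower means in N_dCKO than in WT and 1 passed the test, Mal (-0.90 ± 0.20, limma adjusted p = 0.0309), a proteolipid of myelin membranes. Their summed signal was 94514 to 118420 on the WT arrays, 70271 to 107470 in APP_KO, 95828 to 106920 in APLP2_KO and 69722 to 86750 in N_dCKO. The same 11 genes were all lower with APP loss over 8 against 8 arrays, and 1 passed, Mag (-0.52 ± 0.09, limma adjusted p = 0.0475), a myelin adhesion protein. Of 11 tested microglia genes, all 11 had lower means in N_dCKO than in WT and 5 passed, among them C1qa, a complement subunit (-0.46 ± 0.07, limma adjusted p = 0.00250), and Fcrls (-0.86 ± 0.15, adjusted p = 0.00539). Their summed signal was 15428 to 16137 in WT, 13393 to 15019 in APP_KO and 13295 to 14201 in APLP2_KO, against 12034 to 12958 in N_dCKO. No gene of either list was at 0 on any array.

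Over the 16 arrays, Cd82 correlated with the mean of the myelin list at r = 0.832 and with the mean of the microglia list at r = 0.799, and at 0.683 and 0.536 after each group's mean was taken off. The astrocyte list ran the other way, at r = -0.729 and at -0.124 after the group means were taken off. Its mean log2 level was 11.73 to 11.78 on the WT arrays and 11.86 to 11.88 on the N_dCKO arrays, and 8 of its 10 tested genes were higher in N_dCKO, none past the test. With the choroid plexus list Cd82 correlated at r = 0.533, and at -0.07 after the group means were taken off. These are descriptions, since all points come from the same 16 arrays and share their scaling. APP_KO array 2 had a mean log2 level of 12.66 in the myelin list, inside the WT range from 12.43 to 12.86, and was also the APP_KO array with the highest Cd82 signal. With the myelin list mean as a covariate, Cd82 differed between N_dCKO and WT by -0.38 ± 0.18 (limma adjusted p = 0.646). With the microglia list mean it differed by -0.07 ± 0.34 (adjusted p = 0.994), with an SE over 2 times that of the fit without it. Both covariates were chosen after seeing the data. With the Gapdh ratio (3′ over 5′ control signal, a measure of RNA quality) as a covariate, which ran from 0.797 to 0.834 in N_dCKO and from 0.752 to 0.786 in WT, the difference was -0.71 ± 0.21 (adjusted p = 0.259). The covariates also lowered the share of all genes that passed in N_dCKO against WT, which was 0.943% without them. It was 0.129% with the myelin mean, 0.0772% with the microglia mean and 0.197% with the Gapdh ratio. The part of these cell types and of RNA quality in the Cd82 difference was not tested beyond these fits.

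The genes whose pattern was most like that of Cd82 over the 16 arrays, out of 11657 compared, were Cers2, a ceramide synthase (r = 0.901), Plaat3 (r = 0.899), Trim13 (r = 0.893) and Ccp110, a centriole protein (r = 0.886). After the group means were taken off, these 4 values were 0.806, 0.804, 0.859 and 0.813.

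Tetraspanins other than Cd82 were taken as its family. Of 13 tested, none passed the test with APP loss over 8 against 8 arrays, and 3 had an unadjusted p below 0.05. Among all genes, 0.0171% passed there and 9.16% had such a p. The 3 with the smallest p were Tspan2, a tetraspanin of oligodendrocytes (-0.44 ± 0.09, limma adjusted p = 0.0632), Cd9 (-0.26 ± 0.07, adjusted p = 0.115) and Cd81 (-0.09 ± 0.04, adjusted p = 0.492). The family's median was -0.03, against 0.00 over all genes.

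Gsk3b, the kinase that phosphorylates tau and marks beta-catenin for destruction, did not pass the test in any of the 9 comparisons. Its leading probe set read 3509, 3245, 3947 and 3700 in WT, 4016, 3771, 3952 and 3857 in APP_KO and 3732, 3968, 3696 and 3802 in APLP2_KO, against 3918, 3866, 3974 and 3431 in N_dCKO. The 3 knockout groups all overlapped WT. APP loss gave 0.06 ± 0.04 (SE), with a 95% interval from -0.03 to 0.15, which is a fold from 0.979 to 1.11. All 6 Gsk3b probe sets passed the filter, and on each the estimate for APP loss lay between 0.02 and 0.07. Probe sets of one gene share its RNA and are not replicates. A Gsk3b probe set of low signal did not overlap in N_dCKO against APP_KO. It read 148 to 173 in N_dCKO and 89.3 to 143 in APP_KO (exact permutation p = 0.0286). No member probe set passed the limma test in that comparison, and the share of all probe sets without overlap is not given here. N_dCKO against WT was 0.08 ± 0.06 (limma adjusted p = 0.658) on the leading probe set, and the sign of that small value turned under median centring, to -0.01. Of 15 tested genes of the GSK3 and beta-catenin pathway, none passed with APP loss and 1 had an unadjusted p below 0.05, where 9.16% of all genes did. Dvl1, which relays Wnt signals (0.10 ± 0.04, limma adjusted p = 0.346), Mapt, which encodes tau (0.09 ± 0.05, adjusted p = 0.603), and Tcf7l2, a Wnt transcription factor (-0.14 ± 0.08, adjusted p = 0.658), had the smallest p.

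Mme encodes neprilysin, a membrane peptidase that degrades amyloid-beta. Its leading probe set was dim, with 132, 157, 87.4 and 143 in WT, 114, 131, 125 and 113 in APP_KO and 123, 150, 171 and 117 in APLP2_KO, against 156, 197, 148 and 126 in N_dCKO. The highest array was in N_dCKO and the lowest in WT, and all groups overlapped. The group means were 130 ± 30.2 in WT, 121 ± 9.09 in APP_KO and 140 ± 24.9 in APLP2_KO, against 157 ± 29.8 in N_dCKO (SD, n = 4). APP loss gave 0.04 ± 0.13 (limma adjusted p = 0.972), with a fold interval from 0.856 to 1.23, and the value was -0.01 under median centring. A fall or a rise of Mme within that fold interval was not excluded at this signal, and the interval is not a limit of detection. N_dCKO against WT gave 0.26 ± 0.18 (limma adjusted p = 0.605). The other Mme probe set had a mean signal of 13.2, far below the filter.

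The fixed list of related peptidases and other amyloid-beta degrading enzymes had 5 tested genes, of which none passed with APP loss and 1 had an unadjusted p below 0.05. Among all genes, 9.16% had such a p. Ece2 and Ece1, endothelin-converting enzymes of the same peptidase family as neprilysin, gave -0.30 ± 0.09 (limma adjusted p = 0.206) and -0.26 ± 0.14 (adjusted p = 0.604). Ace, the angiotensin-converting enzyme, gave -0.16 ± 0.14 (adjusted p = 0.826). The genes most like Mme over the 16 arrays were Adck1 (r = 0.774), Grsf1 (r = 0.766), Gm4988 (r = 0.755) and Aco1 (r = 0.753).

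Lrp1 encodes the endocytic receptor that takes up apolipoprotein E and amyloid-beta. It read 2119, 1839, 2190 and 1987 in WT, 2113, 2008, 2072 and 2124 in APP_KO and 1877, 2232, 1884 and 2379 in APLP2_KO, against 1989, 2086, 2429 and 2165 in N_dCKO. Every group overlapped every other. APP loss gave 0.04 ± 0.06 (limma adjusted p = 0.891), with a fold interval from 0.951 to 1.12. The value turned to -0.01 under median centring and to -0.03 with the Gapdh ratio as a covariate. N_dCKO against WT gave 0.09 ± 0.08 (limma adjusted p = 0.712). The other Lrp1 probe set had a mean log2 signal of 6.57, just outside the filter at 6.60, and gave 0.08 ± 0.17 for APP loss.

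Of 11 tested genes of the LDL receptor family and LRP1 ligands, none passed with APP loss and 2 had an unadjusted p below 0.05, 1 in each direction. Among all genes, 9.16% had such a p. Plat, tissue plasminogen activator and a ligand of LRP1, gave -0.24 ± 0.06 (limma adjusted p = 0.129). Sorl1, a sorting receptor of APP, gave 0.09 ± 0.04 (adjusted p = 0.505), and Lrp8, a reelin receptor, gave 0.16 ± 0.08 (adjusted p = 0.600).

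Egfr encodes the epidermal growth factor receptor. Its leading probe set read 431, 381, 448 and 497 in WT, 430, 414, 454 and 464 in APP_KO and 406, 419, 461 and 469 in APLP2_KO, against 530, 513, 444 and 520 in N_dCKO. Of the N_dCKO arrays, 3 lay above every other array and array 3 lay among them. The 3 high arrays, 1, 2 and 4, were those with little choroid plexus signal (676, 941 and 1398 summed over 9 genes, against 36767 on array 3). Over the 16 arrays Egfr correlated with the mean of that list at r = -0.757, and at -0.55 after the group means were taken off, as a description. Its part in the Egfr values was not tested. N_dCKO against WT gave 0.19 ± 0.09 (limma adjusted p = 0.427, exact permutation p = 0.0857), a fold of 1.14 with an interval from 0.998 to 1.30. Without N_dCKO array 3 the difference was 0.25 ± 0.10 (adjusted p = 0.323). N_dCKO against APLP2_KO gave 0.19 ± 0.09 (adjusted p = 0.600), and APP_KO against WT gave 0.01 ± 0.09 (adjusted p = 1.0). APP loss over 8 against 8 arrays was 0.10 ± 0.07 (limma adjusted p = 0.716), with a 95% interval from -0.04 to 0.23.

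The 7 Egfr probe sets differed in brightness, from a mean signal of 10.8 to 455, and 3 passed the filter. In N_dCKO against WT the other probe sets past the filter gave 0.18 ± 0.18 and -0.09 ± 0.20. None of the 7 passed the test over all 45037 probe sets, where 0.215% passed. Of 8 tested ErbB receptors and ligands, none passed with APP loss and 1 had an unadjusted p below 0.05, where 9.16% of all genes did. Erbb3, a receptor for neuregulins, gave -0.35 ± 0.12 (limma adjusted p = 0.350), Tgfa, a ligand of EGFR, -0.11 ± 0.07 (adjusted p = 0.688), and the neuregulin Nrg3 0.10 ± 0.07 (adjusted p = 0.747).

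**Figure D2:**
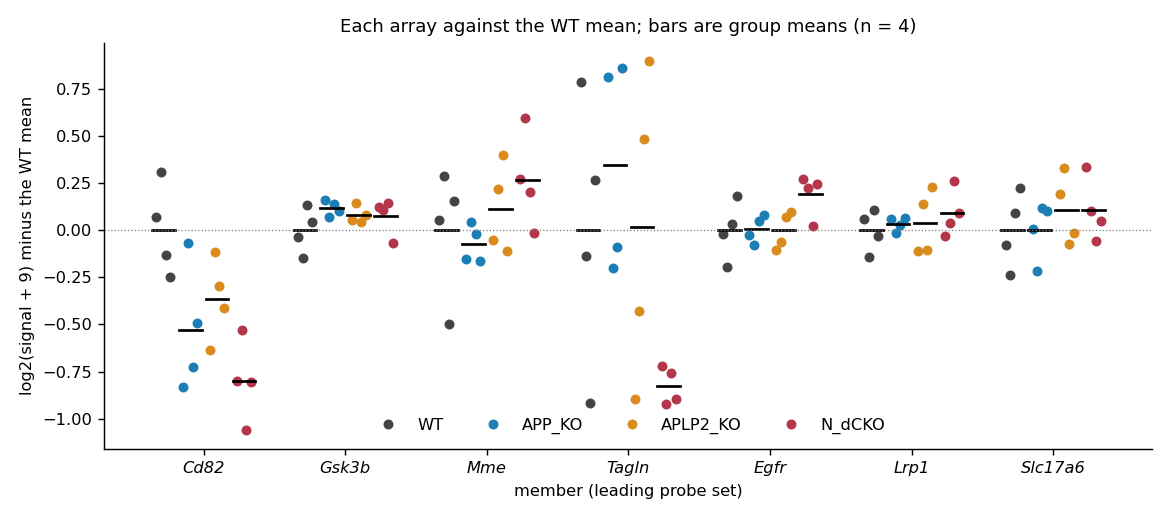
Signal of the leading probe set of each of the 7 members on each of the 16 arrays, as log2(signal + 9) minus the WT mean, coloured by genotype group. Short bars are group means of 4 arrays. Cd82 lay below the WT mean in all 12 knockout arrays, Tagln was low on all 4 N_dCKO arrays and scattered in the other groups, and the groups of the other 5 members overlapped.

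Tagln encodes transgelin, an actin-binding protein of smooth muscle, and had the largest spread of the members over the 16 arrays (SD 0.71 on the log2 scale, against 0.09 for Gsk3b). Its only probe set read 332, 171, 95.5 and 229 in WT, 338, 163, 177 and 350 in APP_KO and 97.3, 138, 267 and 359 in APLP2_KO, against 111, 95.1, 108 and 97.0 in N_dCKO. The N_dCKO arrays were uniformly low. WT array 3 and APLP2_KO array 1 were as low, so N_dCKO overlapped both WT and APLP2_KO, and did not overlap APP_KO.

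N_dCKO against APP_KO gave -1.17 ± 0.36 in Tagln (SE, limma adjusted p = 0.292, exact permutation p = 0.0286). On the leading probe sets, Tagln was the 1 member of 7 whose arrays did not overlap there, where 3.99% of all genes did not. N_dCKO against WT gave -0.82 ± 0.36 (limma adjusted p = 0.355), a fold of 0.565 with an interval from 0.337 to 0.948, and N_dCKO against APLP2_KO gave -0.84 ± 0.36 (adjusted p = 0.529). APP_KO against WT gave 0.35 ± 0.36, and APP loss over 8 against 8 arrays gave -0.25 ± 0.25 (limma adjusted p = 0.854). The interaction of both losses was -1.19 ± 0.51 with an unadjusted limma p of 0.0295 and an adjusted p of 1.0. Tagln thus passed the adjusted test nowhere.

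Genes of smooth muscle and of leptomeninges and fibroblasts moved with Tagln over the 16 arrays as a whole. The genes most like it over the 16 arrays were Acta2, smooth muscle actin (r = 0.840), Tpm2, a tropomyosin (r = 0.838), Mgp, matrix Gla protein (r = 0.836), and Fbxo34 (r = 0.810). With the group means taken off, these were 0.831, 0.819, 0.817 and 0.758. Within N_dCKO the order of the arrays was reversed for Acta2, which read 750, 1230, 820.5 and 1001 on arrays 1 to 4. Tagln read 111, 95.1, 108 and 97.0 on these arrays, a narrow range. The 8 tested genes of the smooth muscle and pericyte list had a summed signal of 11180 to 12867 in WT, 10567 to 12685 in APP_KO and 11386 to 14927 in APLP2_KO, against 10581 to 11300 in N_dCKO. In N_dCKO against WT 7 of the 8 were lower, none passed the test and 1 had an unadjusted p below 0.05, where 12% of all genes did. Myh11, Cnn1, Des and Anpep of that list lay below the filter. The mean of the 8 genes correlated with Tagln at r = 0.726, and that of 10 genes of leptomeninges and fibroblasts at r = 0.720, as a description over the same arrays. The choroid plexus list correlated at r = 0.522 and the endothelial list at r = 0.397. After the group means were taken off, these 4 values were 0.674, 0.665, 0.0512 and 0.164. The part of vessel and meningeal tissue in the Tagln values was not tested. Tagln lies on chromosome 9, 14.8 Mb from Aplp2, and the part of sequence linked to the deleted gene was not tested either.

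**Figure D3:**
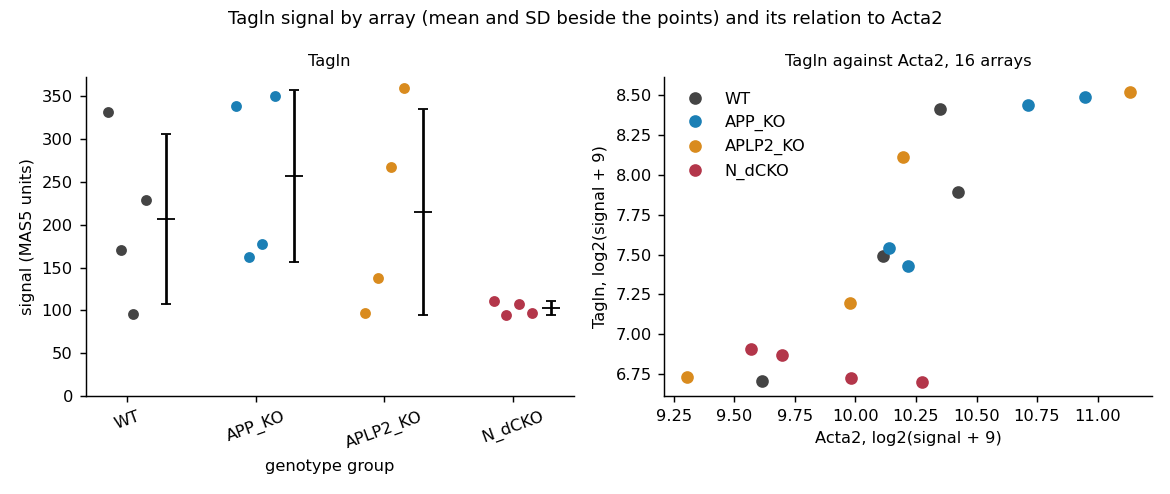
Left, Tagln signal (MAS5 units) on each array by genotype group, with the mean and SD of 4 arrays beside the points. Right, Tagln against Acta2 on the same 16 arrays, both as log2(signal + 9). The 4 N_dCKO arrays read 95.1 to 111 in Tagln. Tagln correlated with Acta2 over the 16 arrays (r = 0.840), but within N_dCKO the order of the arrays was reversed.

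Of 11 tested genes of the transgelin family and of actin-binding calponin genes, none passed with APP loss and none had an unadjusted p below 0.05. Mylk, a myosin kinase, gave -0.07 ± 0.08 (limma adjusted p = 0.860), and Tagln2, the relative of Tagln found in many cell types, gave -0.06 ± 0.09 (adjusted p = 0.926). Mrtfa, a coactivator of actin genes, gave 0.04 ± 0.06 (adjusted p = 0.927).

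Slc17a6 encodes VGLUT2, which loads glutamate into synaptic vesicles and is abundant in thalamic neurons. Its leading probe set read 945, 843, 1065 and 1165 in WT, 1004, 856, 1085 and 1071 in APP_KO and 1139, 1256, 949 and 988 in APLP2_KO, against 1260, 1072, 958 and 1034 in N_dCKO. All groups overlapped. APP loss gave 0.00 ± 0.08 (limma adjusted p = 0.998), with a fold interval from 0.893 to 1.12, and the other Slc17a6 probe set gave 0.01 ± 0.07. N_dCKO against WT gave 0.11 ± 0.11 (adjusted p = 0.760). The thalamus and habenula list, included for tissue carried along in dissection, had a mean level of 9.26 to 9.28 in the 4 groups over 12 genes. Slc17a6 correlated with its mean at r = 0.0151 over the 16 arrays. With subiculum and neighbouring cortex it correlated at 0.497, with hippocampal neurons at -0.485 and with the myelin list at -0.495. After the group means were taken off, these 4 values were 0.0167, 0.523, -0.478 and -0.691. The part of carried-along tissue in the Slc17a6 values was not tested. Of 4 other tested vesicular neurotransmitter transporters none passed and none had an unadjusted p below 0.05, and the GABA transporter Slc32a1 gave 0.07 ± 0.05 (limma adjusted p = 0.766).

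Set side by side for APP loss, Cd82 had the largest difference of the 7 members and Tagln the widest interval. With APP loss over 8 against 8 arrays, 5 of the 7 members were above 0 and 2 below, with a median of 0.04, while 50.8% of all genes were above 0 with a median of 0.00. None of the 7 passed and 1, Cd82, had an unadjusted p below 0.05, where 0.0171% of all genes passed and 9.16% had such a p. In APP_KO against WT none passed, Cd82 alone had an unadjusted p below 0.05, and the shares of all genes were 0.00857% and 5.18%. In APLP2_KO against WT none passed, 1 of 7 had an unadjusted p below 0.05, and the shares were 0.129% and 7.44%. In N_dCKO against WT 2 of 7, Cd82 and Tagln, had an unadjusted p below 0.05, where 12% of all genes did. In N_dCKO against APLP2_KO none passed and 2 of 7, again Cd82 and Tagln, had such a p, where 0.0257% passed and 8.44% did. These comparisons share arrays and are not independent of each other.

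The remaining comparisons gave no call among the members. N_dCKO against APP_KO had 1 of 7 at an unadjusted p below 0.05 (0.352% of all genes passed and 7.71% had such a p), APLP2_KO against APP_KO had 0 of 7 (0.163% and 8.13%), loss of APLP2 had 2 of 7 (0.917% and 10.5%), and the interaction had 1 of 7 (0% and 4.15%). In N_dCKO against WT, Cd82 was the 1 member of 7 whose arrays did not overlap, where 7.36% of all genes did not.

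**Figure D4:**
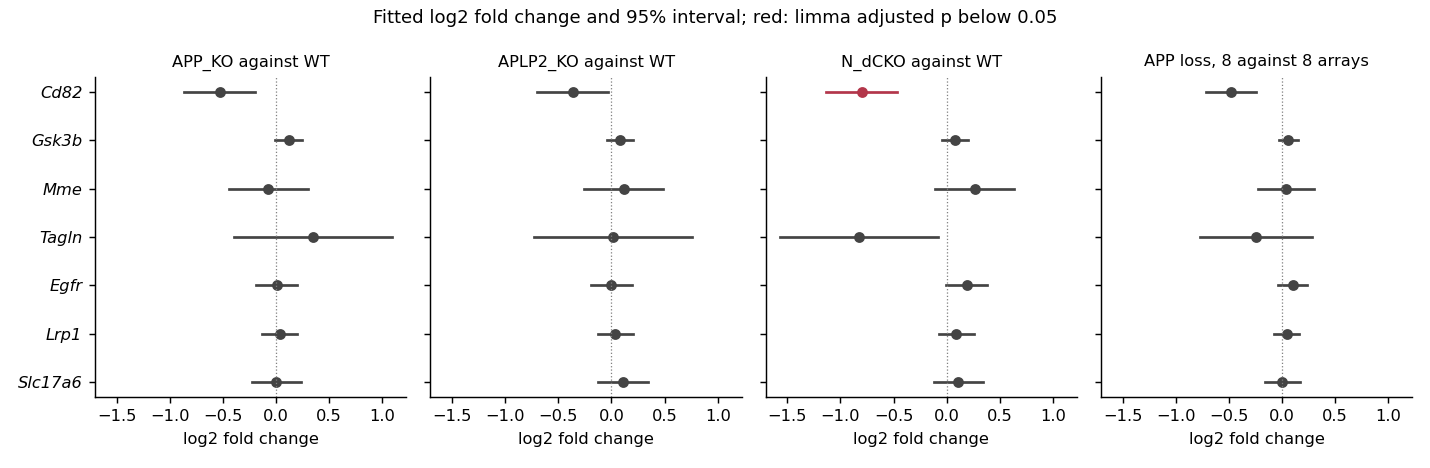
Fitted log2 fold change (points) and 95% interval (lines) of the 7 members in 4 comparisons: each knockout group against WT, and APP loss over 8 against 8 arrays. Red marks a limma adjusted p below 0.05, reached by Cd82 in N_dCKO against WT at -0.80. The interval of Tagln is the widest, and those of Gsk3b and Lrp1 are narrow and include 0.

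Probe sets below the filter had wide intervals. For APP loss, the SE on the 22 probe sets ran from 0.04 on the leading Gsk3b probe set to 0.45 on the dim Cd82 probe set. Over all 45037 probe sets, 1 of the 22 passed the test in N_dCKO against WT, the leading Cd82 probe set (limma adjusted p = 0.0368), where 0.215% of all passed.

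**Figure D5:**
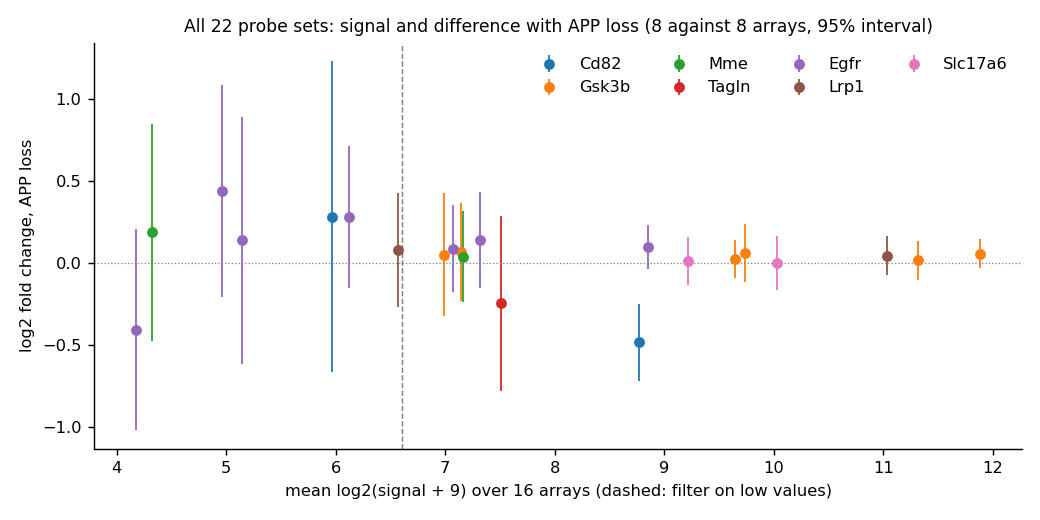
Log2 fold change with APP loss over 8 against 8 arrays (vertical axis, with 95% interval) against the mean log2(signal + 9) over 16 arrays (horizontal axis) for all 22 probe sets of the 7 members, coloured by gene. The dashed line is the filter on low signal at 6.60. The leading Cd82 probe set, at -0.48, is the one whose interval lies wholly away from 0, and the 7 probe sets left of the line have wide intervals.

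Other genes reported as AICD targets were counted as a list of 15, of which 14 were tested. With APP loss 1 passed, App itself, the deleted gene. In N_dCKO against WT 3 were lower: App, the water channel Aqp1 (-2.44 ± 0.39, limma adjusted p = 0.00250) and Ttr, the thyroid hormone carrier transthyretin (-4.92 ± 1.0, adjusted p = 0.0204). Aqp1 and Ttr are abundant in choroid plexus, and all 9 tested choroid plexus genes, Ttr among them, were lower in N_dCKO and passed the test. The N_dCKO arrays were not alike in them. Ttr read 110, 283 and 715 on N_dCKO arrays 1, 2 and 4, but 34290 on array 3, above the WT arrays, which read 26340 to 33520. Aqp1 read 25.9, 53.6 and 14.8 on arrays 1, 2 and 4 and 140 on array 3, against 200.3 to 356.5 in WT. On array 3 the mean log2 level of the 9 genes was 8.88, below the lowest WT array at 9.24. Without array 3, Ttr gave -6.64 ± 0.34 (limma adjusted p = 3.15e-10) and Aqp1 -2.94 ± 0.30 (adjusted p = 6.40e-06). Ttr no longer passed without N_dCKO array 1 (adjusted p = 0.0754) or array 2 (adjusted p = 0.0752). The part of choroid plexus tissue in Aqp1 and Ttr was not tested.

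The partners that carry AICD to the nucleus, and the machinery that releases it, were measured as well. Of 15 tested binding and nuclear partners none passed with APP loss and 3 had an unadjusted p below 0.05, where 9.16% of all genes did. Tfcp2, a transcription factor of the Fe65 complex, gave 0.16 ± 0.06 (limma adjusted p = 0.421), Med12, a Mediator subunit, gave 0.17 ± 0.08 (adjusted p = 0.528), and the scaffold Mapk8ip1 gave -0.16 ± 0.06 (adjusted p = 0.395). Of 8 tested genes of gamma-secretase and the APP family, App passed with APP loss (-3.02 ± 0.05), and Psenen, a gamma-secretase subunit, gave -0.03 ± 0.04 (limma adjusted p = 0.877). Of 11 tested genes of the p53 pathway, the pathway of Trp53, none passed and 2 had an unadjusted p below 0.05, where 9.16% of all genes did. Perp gave -0.39 ± 0.13 (adjusted p = 0.301), Mdm2, which degrades p53, gave -0.12 ± 0.06 (adjusted p = 0.534), and Zmat3 gave 0.05 ± 0.04 (adjusted p = 0.805).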

How the data were processed

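Hippocampal RNA of 4 genotype groups was measured on 16 Affymetrix arrays, 4 per group. The authors deposited linear intensity signals computed with MAS5 according to the submitters' processing notes, whose version the sources used here do not give. Each array had a 2% trimmed mean of 500, and this scaling was kept. Probe sets were named from the platform's annotation. Signals were transformed as log2(signal + 9), which understates differences at low signal. A probe set was kept where its mean log2 signal reached the median of all (6.60), which held for 22503 of 45037, and the brightest probe set per gene gave 11664 genes. limma 3.58.1 in R 4.3.3 fitted 1 mean per group over all 16 arrays with a variance trend (12 residual and 19.4 moderated degrees of freedom). P-values are two-sided and adjusted by Benjamini-Hochberg over all genes of a comparison, and a gene passed at an adjusted p below 0.05. A second fit covered all 45037 probe sets. APP loss is the mean of APP_KO against WT and N_dCKO against APLP2_KO, and APLP2 loss is the mean of APLP2_KO against WT and N_dCKO against APP_KO. Single values were also tested by exact permutation of arrays (70 arrangements of 4 against 4, and 4900 within strata of 8 against 8). Precision is limited by the number of arrays. The median SE was 0.098 for 2 groups. The fit was tested on simulated data.

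The members, lists and tests were chosen with earlier results of these data known. Named genes are the members, App, Aplp2 and Aplp1, up to 3 genes per pathway list with the smallest p for APP loss, every called list gene, and the 4 genes most correlated with each of the 3 most variable members. The cell type lists are hippocampal neurons, thalamus and habenula, subiculum and neighbouring cortex, smooth muscle and pericytes, endothelial cells, leptomeninges and fibroblasts, choroid plexus, oligodendrocytes and myelin, oligodendrocyte precursors, astrocytes and microglia. Lists were described by counts and medians. In N_dCKO against WT none of the tested genes passed in the lists of endothelial cells (9 genes), astrocytes (10), oligodendrocyte precursors (8), leptomeninges and fibroblasts (10), thalamus and habenula (12), hippocampal neurons (12) or subiculum and neighbouring cortex (8), where 0, 4, 3, 3, 3, 3 and 1 of them had an unadjusted p below 0.05. Among all genes, 12% had such a p in that comparison. Promoter sequences are from RefSeq on GRCm38.p6, and no build is attached to the array values. Arrays with the same replicate number in their titles were checked for pairing by the correlation of their deviations from the group means. WT and APP_KO were paired, with r over 0.1 in all 4 pairs (0.192 to 0.301), which none of the other 5 pairs of groups reached. APLP2_KO and N_dCKO came nearest, with r from 0.0822 to 0.208 and over 0.1 in 2 of 4 pairs. The remaining pairs of groups had r from -0.02 to 0.105. Differently numbered arrays had r from -0.20 to 0.173, with a median of -0.0264. Alternatives were other pseudocounts, filters and normalizations, the mean over probe sets, no variance trend, array weights, a replicate block, only the groups compared, the Gapdh ratio as a covariate and each array left out.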

Additional observations from a re-analysis of the deposited data

Results flagged for a closer look

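Of 88 groups of 4 arrays (22 probe sets in 4 groups), 7 held an array whose gap to the nearest other array was a larger share of the group's range than Dixon's 95% critical value allows. Chance flags about 1 group in 20. The dim Cd82 probe set read 7.25 on APLP2_KO array 3, with the other arrays from 95.9 to 105, and the leading Cd82 probe set had no such array. An Egfr probe set read 154 on APLP2_KO array 2 (others 109 to 115), and a dim Egfr probe set read 28.1 on WT array 4 (others 56.3 to 60.9). A Gsk3b probe set of low signal read 74.4 on APP_KO array 2 (others 137 to 150.1) and 94.7 on WT array 4 (others 121 to 123). The dim Lrp1 probe set read 50.7 on APP_KO array 2 (others 86.1 to 88.9). The second Slc17a6 probe set read 631 on WT array 3 (others 540.2 to 543). No leading probe set of a member was among them.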

How the results depend on the processing

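Of 989 recomputed values of the members, 942 kept their direction and their side of the threshold, 15 lost the call, 4 gained one and 28 turned sign, none of the last with a call on either side. The count of members called in N_dCKO against WT was 1, and it was 0 at the 75th percentile filter, where Cd82 was not among the genes tested, 0 with the Gapdh ratio, and 0 with the myelin or the microglia list mean as a covariate (both chosen after seeing the data). The share of all genes that passed there was 0.943%. It was 0.854% at the 75th percentile filter, 0.197% with the Gapdh ratio, 0.129% with the myelin mean and 0.0772% with the microglia mean. The count of members ran from 0 to 1 when single arrays were left out, with the Cd82 difference from -0.89 to -0.70. For APP loss over 8 against 8 arrays the count was 0, ran from 0 to 1 with single arrays left out, and was 1 with the replicate number as a block (Cd82 -0.48, limma adjusted p = 0.0108). Replicate numbers paired WT with APP_KO arrays, and APLP2_KO with N_dCKO arrays only in part (r from 0.0822 to 0.208). Array 2 had the highest Cd82 signal of each group. The block moved no other count of members called, in all 16 arrays or in WT and APP_KO alone. With the microglia covariate the sign of Cd82 turned, from -0.37 to 0.15 for APLP2_KO against WT, from -0.27 to 0.084 for N_dCKO against APP_KO and from -0.32 to 0.12 for APLP2 loss, and the interaction was -0.069. Under median centring, Gsk3b in N_dCKO against WT was -0.010, Egfr in APP_KO against WT -0.084, and APP loss gave -0.012 in Mme, -0.0066 in Lrp1 and -0.050 in Slc17a6. With the Gapdh ratio Lrp1 gave -0.032 for APP loss and -0.057 for N_dCKO against WT. The mean over probe sets gave -0.0044 for Egfr in APP_KO against WT, and array weights gave -0.0020 for Slc17a6 with APP loss. With single arrays left out, the Cd82 interaction ran from -0.0061 to 0.25, Mme with APP loss from -0.044 to 0.087, Egfr in APP_KO against WT from -0.058 to 0.068 and Slc17a6 with APP loss from -0.039 to 0.038. The causes were not tested. Over all genes, 2 passed for APP loss, against 29 under median centring, 66 with the block, 28 without N_dCKO array 3, 10 without N_dCKO array 4 and 94 without APP_KO array 2. The block also moved the count from 15 to 30 in APLP2_KO against WT, from 110 to 198 in N_dCKO against WT, from 3 to 17 in N_dCKO against APLP2_KO and from 19 to 31 in APLP2_KO against APP_KO, and the block on WT and APP_KO alone from 1 to 6. Over all settings it ran from 9 to 198 in N_dCKO against WT (110), 2 to 137 for APLP2 loss (107), 9 to 59 in N_dCKO against APP_KO (41), 1 to 35 in N_dCKO against APLP2_KO (3), 6 to 31 in APLP2_KO against APP_KO (19), 2 to 30 in APLP2_KO against WT (15), 1 to 16 in APP_KO against WT (1) and 0 to 11 for the interaction (0). Dim probe sets limit what Mme and the second Cd82 probe set can show.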
